A study of Mus musculus with 6 samples.

Results

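The genes that flank Stc1 on mouse chromosome 14 were compared between Stc1 knockout (KO) and wild-type (WT) embryonic fibroblasts. A flanking gene was a named locus whose smallest start lay within 10 Mb of the Stc1 start, with at least 20 estimated fragments summed over the 6 libraries. Of 246 named loci in that window, 148 reached 20 fragments and 98 did not. Stc1 itself and 3 neighbours, Phyhip, Tnfsf11 and Loxl2, were left out by name, and Ctsb and Fdft1 were left out because at least 1 library carried no usable value for them. The 142 flanking genes that remained were 73 on the proximal side (smaller coordinates than Stc1) and 69 on the distal side, out of 36812 named loci with usable values in all libraries. Of the 142, 128 were annotated as protein-coding.

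The cells were mouse embryonic fibroblasts, primary cells grown from embryos in medium with serum, of 2 genotypes: Stc1 -/- (3 libraries) and Stc1 +/+ (3 libraries). Both genotypes were labelled with the C57BL/6 background. Which part of Stc1 was disrupted, and in which embryonic stem cell strain the allele was made, remain unstated in the sources used here. The RNA was poly(A)-selected and sequenced from a stranded library kit.

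Stc1 encodes stanniocalcin-1, a secreted glycoprotein hormone that in fish regulates calcium and that in mammals acts mostly within tissues. Genes close to a targeted locus are inherited together with it during breeding, and neighbouring genes can also share promoters, enhancers and chromatin domains, so the surroundings of a targeted gene are commonly inspected in a knockout line. The genes flanking Stc1 have unrelated roles: beside it lie an iron carrier, a membrane-remodelling factor, death receptor and protease genes, and farther out come developmental regulators, leukocyte genes and metabolic enzymes.

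The libraries held 21882092 to 44552311 estimated fragments in KO cells and 42509592 to 71488701 in WT cells. Stc1 stood at 0.282, 0 and 0 CPM (fragments counted, relative to the scaled library size) in KO replicates 1 to 3, against 31.8, 6.82 and 7.62 CPM in WT replicates 1 to 3. All 13 fibroblast markers found were at 1 CPM or more in all 6 libraries. Macrophage markers were present too, at a summed level that differed between libraries of the same genotype: 1320, 109 and 140 CPM in KO replicates 1 to 3, against 24.6, 1260 and 12500 CPM in WT replicates 1 to 3. These sums cover the 16 of 20 listed markers that were found, of which 2, 5 and 4 lay under 1 CPM in KO replicates 1 to 3 and 10, 0 and 0 in WT replicates 1 to 3. Separate embryos are not stated for the libraries, so every p-value reflects only how these particular libraries vary, which may be technical.

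No flanking gene passed the test across all loci. Of the 142 genes, 127 had enough fragments to be tested, 65 proximal and 62 distal; the 15 others held between 20 and 94 fragments in all. edgeR's quasi-likelihood test with Benjamini-Hochberg adjustment called 0 of the 127, where the lowest adjusted p was 0.763, and it called 0% of all 15673 loci tested. At an unadjusted p under 0.05 edgeR gave 5 genes higher and 7 lower in KO cells, 9.45% of the 127, beside 3.87% of all loci tested (1.6% higher, 2.27% lower). DESeq2 called 1 of 141 flanking genes, the long non-coding RNA AC162936.1, and 0.322% of all loci with an adjusted p. Rows for 82 flanking genes were found in the authors' deposited table, 70 of them were tested, and 0 had a q under 0.05, beside 0.193% of all rows tested; the lowest q there was 0.334, for Adamdec1.

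Since the test called no gene, the libraries themselves were compared next. In 20 of the 127 tested genes the 3 KO and 3 WT libraries did not overlap: 9 genes were higher in every KO library and 11 were lower in every KO library. That was 15.7% of the tested flanking genes, beside 10.6% of all loci tested (5.18% higher, 5.44% lower) and 12.1% of the 398 loci tested on the rest of chromosome 14. With 3 libraries against 3 the exact permutation test can reach no p below 0.1. The gap between the genotypes was often small: in 10 of the 20 genes the nearest KO and WT libraries lay within 1.1-fold of each other. The nearest WT library was replicate 1 in 14 of the 20 genes, and in 71.8% of the 1665 separated loci overall. Without WT replicate 1, 7 of 9 tested genes within 1 Mb of Stc1 and 47 of 121 beyond it were separated, while the share over all loci tested was 38%.

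The share of tested genes that were separated was larger close to Stc1. Within 1 Mb, 6 of 9 tested genes were separated (66.7%), 5 of them higher in KO cells and 1 lower. Beyond 1 Mb, 14 of 118 were separated (11.9%), close to the share over all loci. Neighbours left out by name are not in these shares: Phyhip and Tnfsf11, beyond 1 Mb, were separated upward, and Loxl2, within 1 Mb, was not separated. Between 1 and 2.5 Mb the share was 18.2% of 33 genes, between 2.5 and 5 Mb 6.9% of 29, and between 5 and 10 Mb 10.7% of 56. At an unadjusted p under 0.05, edgeR gave 4 of the 9 genes within 1 Mb (44.4%), all higher in KO cells, and 8 of the 118 beyond it (6.78%). A stricter reading, chosen after the values were seen, asked for a gap of at least 1.2-fold between the nearest KO and WT libraries: 4 of 9 genes within 1 Mb met it (44.4%), beside 3.39% of the 118 genes beyond 1 Mb and 2.02% of all loci tested. With only 9 genes in the inner interval, and neighbours that are not independent of each other, these shares are descriptions, and their difference was not tested.

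**Figure D1:**
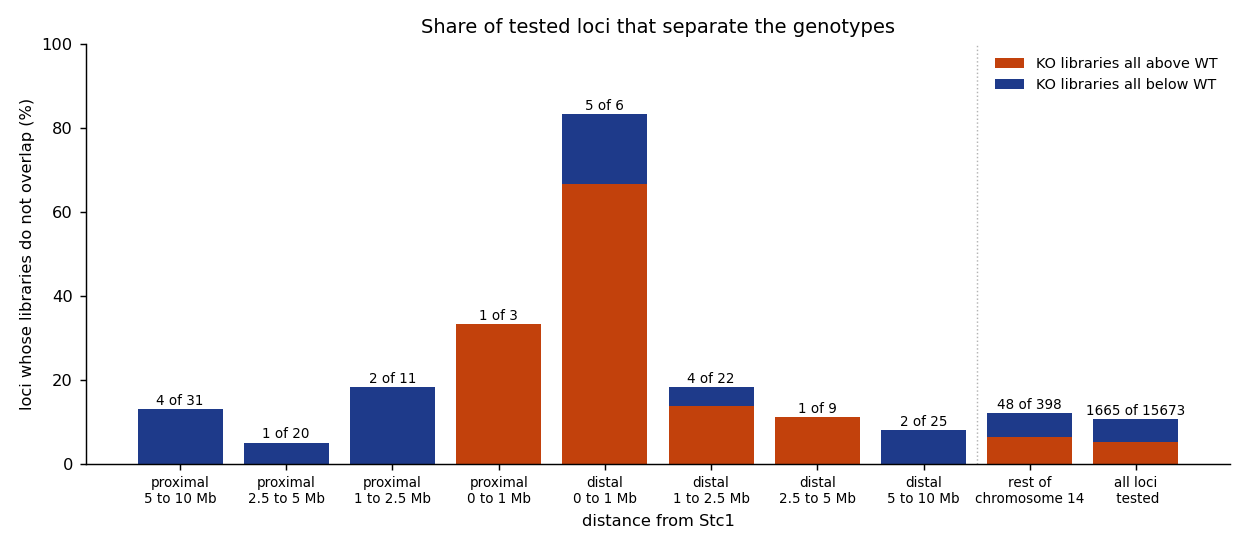
Percentage of tested loci whose KO and WT libraries do not overlap, by distance from Stc1 and side, with the rest of chromosome 14 and all loci tested at the right. The bars stack loci higher in every KO library and loci lower in every KO library, with counts above; the distal interval within 1 Mb stands at 5 of 6 loci (83.3%), against 10.6% of all loci tested.

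The fold changes followed the same outline. The median log2 fold change, KO over WT, was 0.555 over the 9 genes within 1 Mb and -0.072 over the 118 genes beyond it, beside -0.047 over all loci tested and -0.07 over the rest of chromosome 14. On the distal side the median was 0.696 within 1 Mb and 0.001 over all 62 genes; on the proximal side it was 0.157 over the 3 genes within 1 Mb and -0.072 over all 65. The distal interval within 1 Mb was also read library by library, relative to the mean of all 6 libraries. Its median gene lay 0.39, 0.257 and 0.352 log2 units up in KO replicates 1 to 3. In WT replicate 1 it also lay up, by 0.058, while WT replicates 2 and 3 stood at -0.592 and -0.515. In this interval all 3 KO libraries were above all 3 WT libraries, and WT replicate 1 lay nearest to them. Without WT replicate 2 the median over the genes within 1 Mb was 0.313, with 5 genes separated higher and 1 lower of 10 tested. Without the 3 libraries richest in macrophage markers (KO replicate 1 and WT replicates 2 and 3), the median within 1 Mb was 0.071, with 6 genes separated higher and 4 lower of 11 tested; 61.6% of all loci were then separated.

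**Figure D2:**
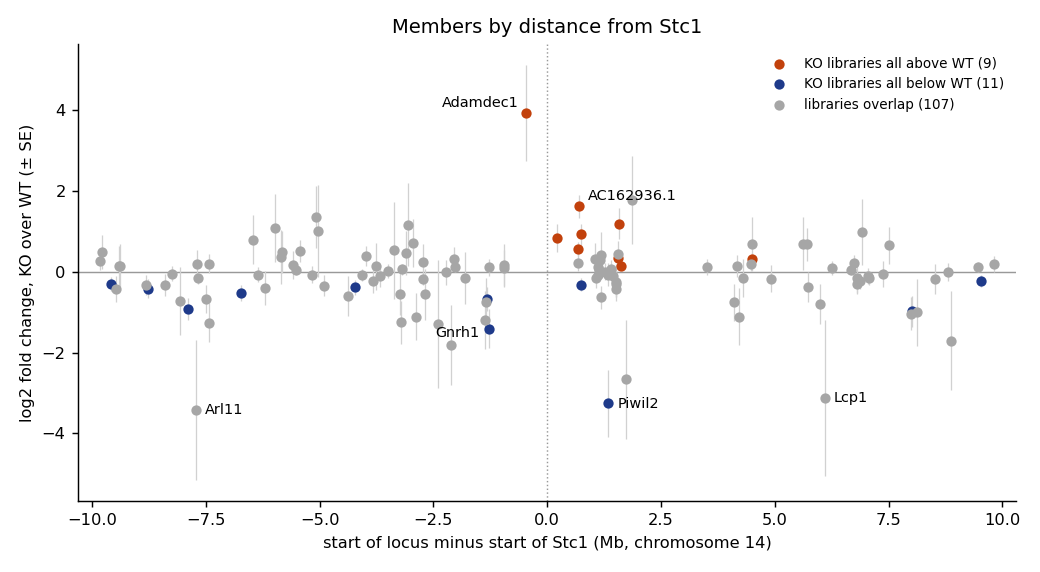
Log2 fold change of each of the 127 tested flanking genes (points, with SE as bars) against the distance of its start from that of Stc1 in Mb. Colour marks the 9 genes higher in every KO library, the 11 lower in every KO library and the 107 whose libraries overlap; 5 of the 9 higher genes lie within 1 Mb of Stc1.

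**Figure D3:**
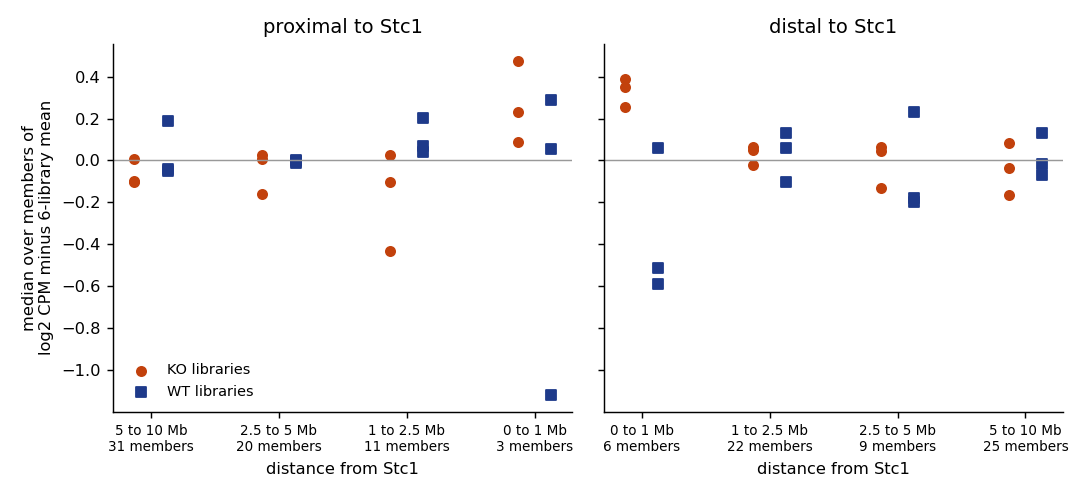
Median over the tested genes of each interval of the log2 CPM minus the mean of all 6 libraries, 1 point per library, with KO libraries left of WT libraries, for the proximal (left) and distal (right) side. In the distal interval within 1 Mb the KO libraries lie between 0.257 and 0.39 and the WT libraries between -0.592 and 0.058; in the farther distal intervals the genotypes overlap.

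The clearest group was a run of adjacent genes about 0.7 Mb distal to Stc1. From Chmp7 to Rhobtb2 it covers 88552 bases of chromosome 14 (mm10, 69716979 to 69805530). Chmp7 (69716979 to 69732570, minus strand) encodes an ESCRT-III-like protein that reseals the nuclear envelope after mitosis. The start of AC162936.1 lies 214 bases away on the plus strand (69732784 to 69767113); GENCODE lists this long non-coding RNA as 4930480K23Rik. A further 359 bases on, and also on the plus strand, begins Tnfrsf10b (69767472 to 69784978), which encodes the mouse TRAIL receptor, a death receptor of the tumour necrosis factor receptor family. Rhobtb2 (69781130 to 69805530, minus strand), a gene for an atypical GTPase with BTB domains, closes the run and shares 3849 bases of its span with Tnfrsf10b on the opposite strand.

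Chmp7 stood at 98.6, 96.9 and 101 CPM in the KO libraries, against 77.3, 52.3 and 72.2 CPM in the WT libraries. All KO libraries lay above all WT libraries, and the nearest pair was 1.25-fold apart. The means were 98.8 ± 2.04 CPM in KO cells and 67.3 ± 13.2 CPM in WT cells (SD, n = 3 each). The log2 fold change was 0.55 (SE 0.18; edgeR unadjusted p = 0.02, adjusted p = 0.763).

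AC162936.1, a rare transcript, stood at 1.88, 1.93 and 1.82 CPM in the KO libraries, against 0.538, 0.656 and 0.642 CPM in the WT libraries. Those values rest on 40, 72 and 82 fragments in the KO libraries, against 38, 28 and 31 in the WT libraries. The KO values lay close to each other, as did the WT values, but counts this small vary by sampling alone. Their closeness is thus not read as a trait of the libraries. The nearest KO and WT libraries were 2.77-fold apart. Its log2 fold change was 1.61 (SE 0.29), with the lowest unadjusted p of all flanking genes by edgeR (0.00133, adjusted p = 0.763). DESeq2 gave a log2 fold change of 1.63 and an adjusted p of 0.000231, while every other alternative left the adjusted p between 0.132 and 1. When each library was left out in turn, the log2 fold change stayed between 1.53 and 1.68. The authors' deposited table gives it a log2 fold change of 1.22 with a p of 0.404.

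Tnfrsf10b stood at 114, 109 and 118 CPM in the KO libraries, against 83, 53.4 and 43.3 CPM in the WT libraries. The lowest KO library was 1.32-fold above the highest WT library, which was replicate 1. Its log2 fold change was 0.93 (SE 0.26; edgeR unadjusted p = 0.0114, adjusted p = 0.763). Where Tnfrsf10b and Rhobtb2 overlap, their fragments can be told apart only if strand was used in counting; the sources used here leave that setting unstated, so both values are uncertain there.

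Rhobtb2 went the other way, with 13.2, 13.1 and 11.9 CPM in the KO libraries, against 15.1, 15.8 and 17 CPM in the WT libraries. The difference was small, a log2 fold change of -0.32 (SE 0.16; edgeR unadjusted p = 0.0906), yet no library overlapped. On the near side of the run, R3hcc1, which encodes a protein with an R3H domain, did overlap, at 36.2, 42.5 and 52.1 CPM in the KO libraries, against 45, 35.7 and 31.1 CPM in the WT libraries. Counting R3hcc1, these 5 neighbours were mixed: 3 were higher in every KO library, 1 was lower and 1 was not separated.

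The KO libraries were closely alike for 3 of these genes. The coefficient of variation between libraries was 2.06% in KO and 19.7% in WT cells for Chmp7, 2.98% and 10.5% for AC162936.1, and 3.88% and 34.4% for Tnfrsf10b. For AC162936.1 it rests on few fragments per library, so sampling alone limits what it can show. It was nearly equal in the genotypes for Rhobtb2 (5.57% in KO and 6.05% in WT cells) and for R3hcc1 (18.4% and 19%). Over all loci tested the median was likewise lower among KO libraries, at 13.3%, than among WT libraries, at 29.7%. Over the 9 genes within 1 Mb the medians were 5.57% in KO and 34.4% in WT cells, and over the 118 genes beyond it 14.5% and 34.8%.

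**Figure D4:**
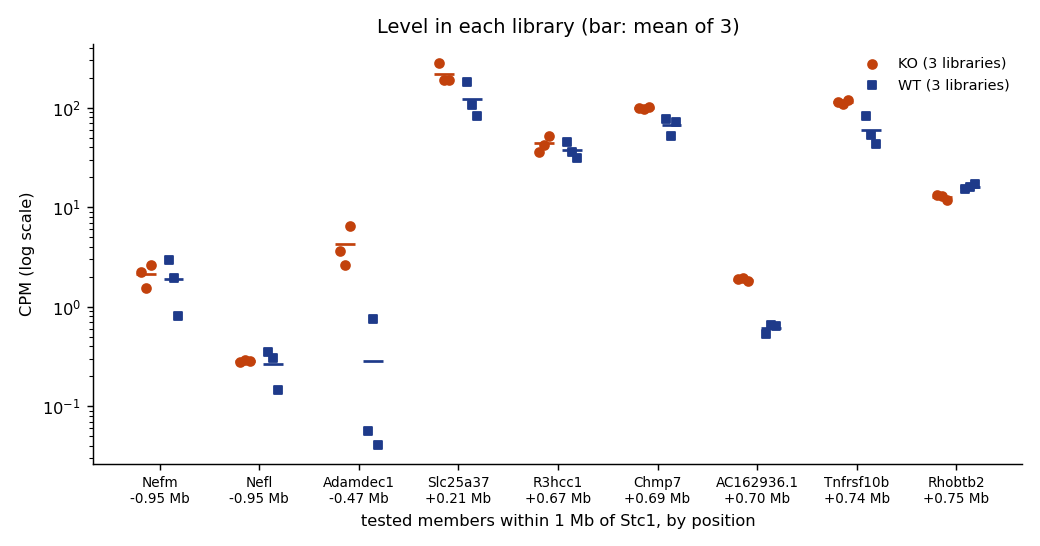
CPM (log scale) of the 9 tested genes within 1 Mb of Stc1 in each library, ordered by position, with KO libraries left of WT libraries and a bar at each mean of 3. AC162936.1 stands at 1.82 to 1.93 CPM in KO libraries and at 0.538 to 0.656 CPM in WT libraries, and Rhobtb2 is the 1 separated gene here that is lower in KO libraries.

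Nearer to Stc1 on the distal side lies Slc25a37, which encodes mitoferrin-1, the carrier that brings iron into mitochondria for haem and iron-sulfur cluster synthesis. It stood at 280, 188 and 189 CPM in the KO libraries, against 181, 105 and 81.6 CPM in the WT libraries. The groups did not overlap, but the nearest pair was only 1.04-fold apart, and the log2 fold change was 0.84 (SE 0.34; edgeR unadjusted p = 0.0511). Between the libraries with few macrophage markers, KO replicates 2 and 3 and WT replicate 1, the log2 fold change was 0.06. The value is also uncertain by position: the locus spans 69241851 to 69504024, overlaps the loci of ENTPD4 and Loxl2 on the other strand and of Synb and AC134575.1 on its own, and lies in a stretch that the annotation lists in duplicate. In GENCODE, 9 pairs of genes there, among them Slc25a37 with Gm16867 and Entpd4 with Entpd4b, recur on the same strand at an offset of exactly 218250 bases. Fragments of such copies can be split between them by the counting. ENTPD4, a Golgi nucleotidase gene in the same stretch, held only 5, 1 and 2 fragments in the KO libraries, against 22, 2.02 and 10 in the WT libraries, and was not tested.

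On the proximal side the nearest gene with a separation was Adamdec1 (68563388 to 68582086, minus strand), 0.466 Mb from Stc1. It encodes a secreted metalloprotease of the ADAM family that in humans is known from macrophages, dendritic cells and gut stroma. Adamdec1 stood at 3.62, 2.6 and 6.43 CPM in the KO libraries, against 0.0566, 0.75 and 0.0414 CPM in the WT libraries. In fragments this was 77, 97 and 290 in the KO libraries, against 4, 32 and 2 in the WT libraries. The lowest KO library was 3.47-fold above the highest WT library, the widest gap among the 20 separated genes. The log2 fold change was 3.93 (SE 1.19; edgeR unadjusted p = 0.0168, adjusted p = 0.763), and it ran from 3.42 to 6.35 when each library was left out, the highest being without WT replicate 2. DESeq2 gave an adjusted p of 0.0575, and the other alternatives gave adjusted p-values from 0.244 to 0.99.

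The other proximal genes within 1 Mb were low in these cells. Nefm and Nefl, which encode neurofilament subunits of neurons and overlap on opposite strands, had log2 fold changes of 0.16 and 0.10, with overlapping libraries and signs that turned when WT replicate 3 was left out (-0.21 and -0.19). Adam7, a protease gene known from the epididymis, held 0, 6 and 12 fragments in the KO libraries, against 2, 0 and 0 in the WT libraries, too few to test.

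Macrophage content differed between the libraries, so the genes near Stc1 were also set beside it. Between KO replicates 2 and 3 and WT replicate 1, the libraries with the lowest marker sums, the log2 fold changes were 1.8 for AC162936.1, 0.45 for Tnfrsf10b, 0.36 for Chmp7, 0.06 for Slc25a37 and 6.26 for Adamdec1. Over all libraries they were 1.61, 0.93, 0.55, 0.84 and 3.93. The subset thus gave smaller values for Tnfrsf10b, Chmp7 and Slc25a37, and it holds a single WT library. KO replicate 1 and WT replicate 2 had similar marker sums, 1320 and 1260 CPM, but unlike profiles: Ctss stood at 440 against 141 CPM, and C1qb at 11.1 against 177 CPM. In those libraries AC162936.1 stood at 1.88 in KO replicate 1 against 0.656 CPM in WT replicate 2, Tnfrsf10b at 114 against 53.4 CPM and Chmp7 at 98.6 against 52.3 CPM. The part of macrophage content in these differences was not tested.

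Just beyond 1 Mb on the distal side, Piwil2 and Epb4.9 were separated in opposite directions. Piwil2 (70372480 to 70429094, minus strand) encodes a PIWI protein that silences transposons in germ cells. It stood at 0.235, 0.107 and 0.0887 CPM in the KO libraries, against 0.411, 1.05 and 2.53 CPM in the WT libraries. These are low levels, 5, 4 and 4 fragments in the KO libraries, against 29, 45 and 122 in the WT libraries. Its log2 fold change was -3.26 (SE 0.84; edgeR unadjusted p = 0.0081, adjusted p = 0.763), the lowest among the separated genes, and DESeq2 gave an adjusted p of 0.0647, with 0.124 to 1 under the other alternatives.

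Epb4.9, now called Dmtn, encodes dematin, an actin-bundling protein of the membrane skeleton. It stood at 6.81, 5.23 and 6.86 CPM in the KO libraries, against 3.81, 1.57 and 2.9 CPM in the WT libraries, 1.37-fold apart at the nearest pair. Its log2 fold change was 1.19 (SE 0.38; edgeR unadjusted p = 0.0213, adjusted p = 0.763). Fam160b2 and the nuclear export receptor gene Xpo7, named after their values were seen, lie close to it and were separated upward by 1.07-fold and 1.03-fold at the nearest pair, with log2 fold changes of 0.34 and 0.15. Without WT replicate 2 the value for Fam160b2 was 0.20. Of the neighbours left out by name, Phyhip also lies in this interval, 1.41 Mb from Stc1, and stood at 3.9, 5.39 and 6.41 CPM in the KO libraries, against 0.156, 0.141 and 0.207 CPM in the WT libraries. Tnfsf11, 9.25 Mb away, was separated upward too (log2 fold change 2.16), while Loxl2, 0.361 Mb away, had overlapping libraries (log2 fold change -0.37).

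Farther out on the proximal side, all 7 separated genes were lower in KO cells. They were 2 of 11 tested genes between 1 and 2.5 Mb, 1 of 20 between 2.5 and 5 Mb and 4 of 31 between 5 and 10 Mb. Over all loci tested 10.6% were separated (5.18% higher, 5.44% lower), and the difference in direction was not tested. Gnrh1, the gene of the hypothalamic hormone that releases gonadotropins, was near the limit of measurement, at 0.423, 0.295 and 0.266 CPM in the KO libraries, against 0.566, 1.36 and 0.683 CPM in the WT libraries (log2 fold change -1.41, SE 0.48, and -0.93 without WT replicate 2).

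Rnaseh2b, a subunit gene of the enzyme that removes ribonucleotides from DNA, had a log2 fold change of -0.52 (SE 0.21; edgeR unadjusted p = 0.0434) and overlaps Dleu7. The nearest pair for Rnaseh2b was 1.07-fold apart, and its log2 fold change was -0.38 without WT replicate 2. A further 4 were also separated by 1.11-fold or less at the nearest pair. They were Kctd9, a gene for a BTB-domain protein, the phosphoinositide phosphatase gene Mtmr6, the telomere-binding homeobox gene Hmbox1, which carries a failed-estimate mark in at least 1 library, and Cab39l, a kinase scaffold gene named after its values were seen. Their log2 fold changes were -0.67, -0.42, -0.39 and -0.30. Single WT libraries weighed on these: Kctd9 stood at -0.30 without WT replicate 2, and Mtmr6, Hmbox1 and Cab39l stood at -0.11, -0.18 and -0.17 without WT replicate 3.

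On the far distal side, 8 Mb from Stc1, Lacc1 and Ccdc122 start back to back and were both lower on average in KO cells. Lacc1 encodes a macrophage enzyme of purine metabolism, and Ccdc122 a coiled-coil protein of unknown function. Their RefSeq starts lie 155 bases apart, so 1 stretch serves as the upstream region of both. It is shown here because both genes were at an unadjusted p under 0.05 in the same direction. The window runs from 250 bases before to 50 after the Ccdc122 start (RefSeq, GRCm38.p6, the assembly of mm10, chr14:77036522-77036821, plus strand), and capitals mark the 156 bases from the Lacc1 start to the Ccdc122 start.
Ccdc122: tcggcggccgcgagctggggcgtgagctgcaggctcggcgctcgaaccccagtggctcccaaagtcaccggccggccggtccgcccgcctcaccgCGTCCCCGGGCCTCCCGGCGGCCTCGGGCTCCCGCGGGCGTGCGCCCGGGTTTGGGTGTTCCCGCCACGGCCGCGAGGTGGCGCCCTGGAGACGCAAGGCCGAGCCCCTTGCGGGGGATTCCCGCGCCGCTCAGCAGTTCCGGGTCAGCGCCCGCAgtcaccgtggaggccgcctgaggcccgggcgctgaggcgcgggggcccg
The window holds 45 CG pairs, against a median of 7 per promoter in the RefSeq table, and 79% of its bases are G or C. GGGCGG occurs 1 time in it on either strand (in 35.7% of the 32851 promoters in that table), while CCAAT and TATAAA, searched on both strands, occur 0 times (in 37.4% and 13.6% of promoters).

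Ccdc122 stood at 5.5, 3.51 and 3.19 CPM in the KO libraries, against 11.7, 6.32 and 6.02 CPM in the WT libraries, a log2 fold change of -0.98 (SE 0.38; edgeR unadjusted p = 0.0435). Lacc1 stood at 12.7, 12.8 and 16 CPM in the KO libraries, against 26.6, 14.8 and 44.1 CPM in the WT libraries, a log2 fold change of -1.04 (SE 0.40; edgeR unadjusted p = 0.0425). Leaving out WT replicate 1 gave -0.60 for Ccdc122 and -1.07 for Lacc1, and leaving out WT replicate 3 gave -1.15 and -0.58. The Ccdc122 libraries did not overlap, while 1 KO library of Lacc1 lay above the lowest WT library. The loci share 1494 bases of span on opposite strands, so both values are uncertain.

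Other pairs that start back to back did not all move as one. Chmp7 and AC162936.1 had log2 fold changes of 0.55 and 1.61, Cdca2 and Kctd9 of -0.75 and -0.67, and Hmbox1 and Ints9 of -0.39 and -0.07. Gm4285 and Tpt1 stood at -0.16 and -0.31, and 1200011I18Rik and Nufip1 at -0.11 and -0.15. Signs were opposite for Xpo7 and Dok2 (0.15 and -2.67) and for 1700001G11Rik and Trim35 (0.24 and -0.18), which overlap. They were also opposite for the joint locus of Gm6904, Setdb2 and others (0.49) and Cab39l (-0.3). Of the remaining distal genes, Sucla2, which encodes a subunit of the citric acid cycle enzyme succinyl-CoA ligase, was separated upward by 1.03-fold at the nearest pair (103, 109 and 121 CPM in KO libraries, against 100.5, 83.9 and 81.1 CPM in WT libraries). The diacylglycerol kinase gene Dgkh was separated downward by 1.02-fold, with a log2 fold change of -0.23 (-0.14 without KO replicate 3).

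The genes with the highest levels per transcript length were not separated by genotype, apart from Mtmr6 above. In FPKM, Itm2b, which encodes an inhibitor of amyloid processing, averaged 589 in KO and 632 in WT cells. Esd, the gene of S-formylglutathione hydrolase, averaged 323 FPKM in KO and 206 FPKM in WT cells, and Tpt1, the translationally controlled tumour protein gene, 137 and 160 FPKM. Tsc22d1, a transcription regulator gene responsive to transforming growth factor beta, averaged 132 FPKM in both genotypes. On the proximal side Trim35, a ubiquitin ligase gene, averaged 52.4 FPKM in KO and 58.4 in WT cells. Extl3, which starts heparan sulfate chains, averaged 39.3 FPKM in KO and 29.3 in WT cells, and the mitophagy receptor gene Bnip3l 25.5 and 19.9 FPKM. Dock5, an exchange factor gene for Rac, had a log2 fold change of 0.11, with overlapping libraries. The spans of Trim35, Extl3, Tpt1, Dgkh, Sucla2, Piwil2 and Lcp1 overlap other loci, some of them small RNAs, so their values are uncertain there.

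The lists of flanking genes by role had fold changes on both sides of 0. The separated share of a list ran from 5.26% of 19 genes (transcription and chromatin) to 33.3% of 6 (secreted and matrix proteins). Over all loci tested it was 10.6%, and no list was tested against that share. Of 15 tested genes of mitochondria and metabolism, 11 were positive and 4 negative, where 44.4% of all loci tested were positive. Their median log2 fold change was 0.225, with 2 separated upward (Slc25a37 and Sucla2) and 1 downward (Dgkh). Of 22 genes of the cytoskeleton and trafficking, 10 were positive and 12 negative (median -0.09), with 2 separated in each direction. Of 19 genes of transcription and chromatin, 9 were positive and 10 negative (median -0.055), and Hmbox1 alone was separated. In that list Sox7, an endothelial transcription factor gene, had a log2 fold change of 1.35 (SE 0.77), with overlapping libraries.

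The 11 tested genes of the cell cycle and DNA repair had a median of -0.072, with Chmp7 separated upward and Rnaseh2b downward. Of 8 receptor and channel genes, 4 were positive and 4 negative (median -0.046), and Tnfrsf10b alone was separated. Gfra2, the neurturin co-receptor gene, had the highest fold change of that list, at 12.1, 21.1 and 43.4 CPM in the KO libraries, against 17.7, 3.82 and 0.828 CPM in the WT libraries. Its libraries overlapped, and the log2 fold change was 1.77 (SE 1.09). Of 6 secreted and matrix genes, 3 were positive and 3 negative (median 0.178), with Adamdec1 and Gnrh1 separated. Each of these lists had 0 genes called by edgeR after adjustment and 0 by DESeq2. Between 0 and 2 genes of each of these lists were at an unadjusted p under 0.05 by edgeR (0% to 33.3%), beside 3.87% of all loci tested.

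Leukocyte and interferon genes were the list with the lowest median, -1.113 over 11 tested genes, 2 positive and 9 negative. The 2 positive genes were Adamdec1 and Tnfrsf10b, which were also its only separated ones, 18.2% of the 11 beside 10.6% of all loci tested. At an unadjusted p under 0.05 edgeR gave 2 genes of this list higher and 1 lower (27.3%), beside 3.87% of all loci tested. Lcp1, which encodes the leukocyte actin-bundling protein plastin 2, stood at 108, 9.52 and 12.5 CPM in the KO libraries, against 2.34, 167 and 962 CPM in the WT libraries; it was named after its values were seen, as were the next 3 genes. Arl11, a GTPase gene of macrophages, stood at 5.54, 0.349 and 0.998 CPM in the KO libraries, against 0.736, 9.18 and 62.8 CPM in the WT libraries. The adaptor gene Dok2 stood at 3.81, 0.831 and 0.776 CPM in the KO libraries, against 0.311, 7.35 and 26.3 CPM in the WT libraries, and overlaps Xpo7. Epsti1, an interferon-induced gene, stood at 3.85, 1.61 and 0.666 CPM in the KO libraries, against 0.665, 2.9 and 16.2 CPM in the WT libraries.

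In all 4 of these genes WT replicate 3 was highest, and WT replicate 1 was at or near the lowest level, as for the summed macrophage markers. Their log2 fold changes of -3.12, -3.42, -2.67 and -1.70 had standard errors of 1.93, 1.73, 1.47 and 1.22, and their libraries overlapped. Between KO replicates 2 and 3 and WT replicate 1 the log2 fold changes were 2.24 for Lcp1, -0.12 for Arl11, 1.36 for Dok2 and 0.76 for Epsti1, so that 3 of the 4 turned sign. In bulk RNA, fewer cells of a type and less RNA per cell cannot be told apart.

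**Figure D5:**
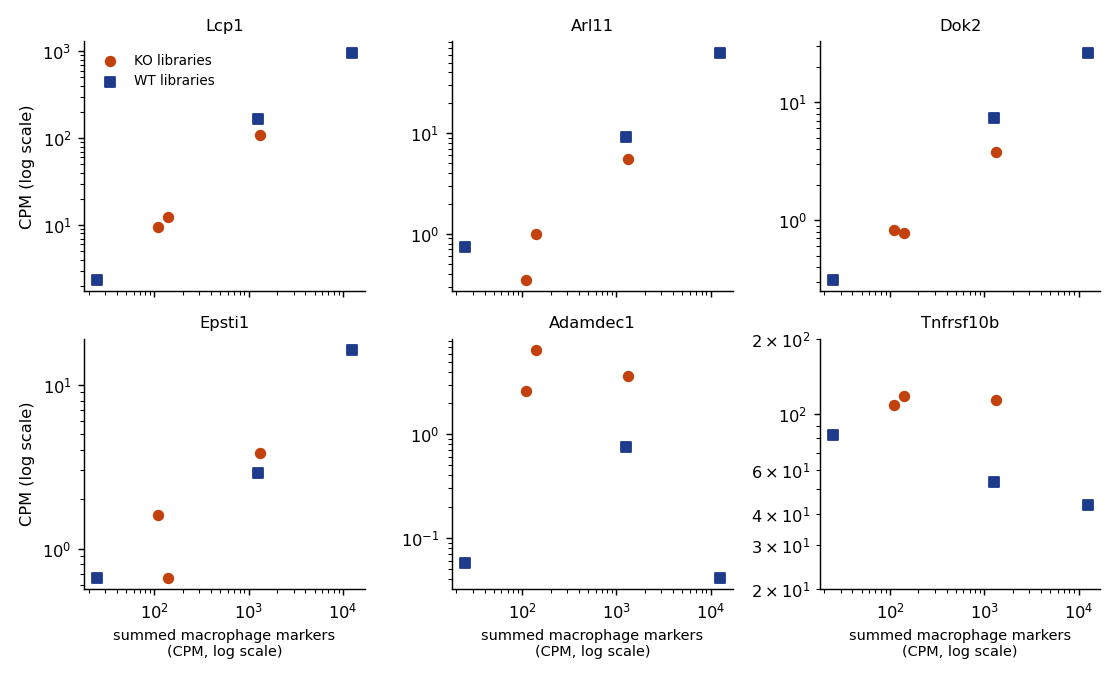
CPM of 6 flanking genes (log scale) against the summed CPM of 16 macrophage markers (log scale) in each library. Lcp1, Arl11, Dok2 and Epsti1 are highest in WT replicate 3, which has the highest marker sum (12500 CPM), while Adamdec1 and Tnfrsf10b are higher in all 3 KO libraries than in any WT library.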

How the data were processed

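The submitters' processing notes name mm10, Cuffdiff 2.0.1, TopHat2 2.0.6 and CASAVA 1.8.2, without their roles or order. Per the file headers, each library's deposited file gives the estimated count of fragments and the FPKM of each locus; 26.9% of the estimated counts above 0 are not whole, and they were rounded. The authors' deposited table gives a log2 fold change, a p-value and a q-value per row; its row for a flanking gene was found by gene name and overlap. Loci without a name (0.507% to 0.555% of fragments) and 16 named loci marked HIDATA stayed out. Coordinates are those of the files (1-based); gene types come from GENCODE M21 and promoters from RefSeq (47 of the 142 genes matched).

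The counts of all named loci entered 1 fit in R 4.3.3 with edgeR 4.0.16 (TMM scaling, filterByExpr, robust quasi-likelihood F test, Benjamini-Hochberg adjustment, threshold 0.05). CPM are fragments relative to the TMM library sizes. The alternatives included DESeq2 1.42.0, limma 3.58.1 (voom, or log2 of FPKM plus 1 or 0.1), RLE and upper quartile scaling, 2 other filters, no loci marked FAIL and leaving out each library; a fit without the 3 libraries richest in macrophage markers was added after seeing the data. The fit was also run on data simulated from its own spread estimates, which cannot show how it handles differences in macrophage content between libraries. No 2 libraries agreed within sampling noise (chi-square per degree of freedom of 48.9 or more). The lowest value joined libraries of opposite genotype, WT replicate 1 and KO replicate 2. With KO replicates 1 and 3, WT replicate 1 stood at 247 and 152, against 474 and 834 with WT replicates 2 and 3. By this measure WT replicate 1 was thus nearer to each KO library than to the other WT libraries. The genes, role lists and marker lists were chosen with earlier results of these data known. Named genes were the 5 tested genes nearest Stc1 on each side, the 4 largest separated rises and falls per side, the 5 lowest p-values per direction, the 4 highest FPKM per side, 2 genes per role list by p, and any gene called by DESeq2 or the authors. 1 gene that these rules select is not reported here.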

Additional observations from a re-analysis of the deposited data

How the results depend on the processing

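edgeR called 0 flanking genes under each scaling, filter and left-out library tried, limma called 0 with all libraries (voom and 2 FPKM scales), and DESeq2 called 1 gene, AC162936.1, which was higher. Genes lower in KO cells at an unadjusted p under 0.05 numbered 7 of 127 by edgeR and 13 of 141 by DESeq2. By limma on log2(FPKM + 1) and on log2(FPKM + 0.1) they numbered 2 each. Genes higher at that p numbered 5, 6, 7 and 7 in the same order. Over all loci, 3.87%, 5.2%, 4.06% and 4.21% were at that p in either direction. Both FPKM fits gave 6 genes lower in every KO library (against 11) and 13 higher (against 9). In these fits, as by edgeR, 10.6% of all loci were separated. Their proximal median was -0.012 (against -0.072). Leaving out each library gave 3 to 15 genes higher and 2 to 15 lower at that p, 13 to 27 higher and 13 to 27 lower in every KO library, proximal medians of -0.137 to 0.002 and distal medians of -0.05 to 0.105; the highest counts came without WT replicate 1. In the same settings 15.7% to 38% of all loci were separated and 1.69% to 18.4% were at that p. Without the 3 libraries richest in macrophage markers, which leaves 1 WT library assumed to vary like the KO ones, 53 genes were separated higher and 42 lower, 61.6% of all loci were separated, and the proximal median was -0.016. In that setting 6 of 11 genes within 1 Mb were separated higher and 4 lower, and their median was 0.071. Within 1 Mb, 5 separated higher and 1 lower was the count under every planned scaling, filter and test. Of 31 named genes, 24 kept their sign in every alternative run. The other 7 turned in at least 1, among them Esd and Extl3, at 0.68 and 0.39 with all libraries. Leave-one-out values ran from -0.19 to 0.37 for Nefl, -0.21 to 0.63 for Nefm, -0.05 to 0.27 for Dock5, -0.48 to 0.40 for Itm2b and -0.25 to 0.33 for Tsc22d1. Without WT replicate 3, Nefl stood at -0.19, Nefm at -0.21 and Itm2b at 0.40; without KO replicate 3, Nefm at -0.03 and Tsc22d1 at 0.03; without WT replicate 1, Dock5 at -0.05 and Tsc22d1 at 0.33; without KO replicate 1, Tsc22d1 at 0.00. Without the macrophage-rich libraries, Nefl stood at -0.28, Nefm at -0.50, Extl3 at -0.02, Itm2b at 0.10 and Esd at -0.12. By limma-voom Itm2b stood at 0.01 and Tsc22d1 at 0.02, and by both FPKM fits at 0.06 each. The cause of these turns was not tested. No paired analysis was possible because the replicate numbers only name the libraries and the labels pair none. The spread between libraries (common biological coefficient of variation 0.467) limits what 3 libraries per genotype can call, and genes under about 1 CPM rest on few fragments.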
